A study of Mus musculus with 8 samples.

Results

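Steroid hormones are built from cholesterol by a short chain of carriers and enzymes, and this account follows the mRNAs of 10 of them in cultured cells of mouse ovarian follicles. The genes were Scarb1, Star, Cyp11a1, Fdx1, Fdxr, Hsd3b1, Cyp17a1, Hsd17b1, Cyp19a1 and Srd5a1. They were found by their mouse Entrez identifiers in the row names of the deposited value table, out of 24232 genes with such an identifier, and each of the 10 was among the 15637 genes that were bright enough to be tested. The genes were named as steps of the pathway and not ranked by their values, although earlier results of these data were already known.

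In the ovary, theca cells around the follicle turn cholesterol into androgens, and granulosa cells inside the follicle turn those androgens into estrogens with the enzyme aromatase. Cholesterol enters the cell from lipoproteins, is carried into the mitochondrion and is cut there to pregnenolone, which enzymes of the endoplasmic reticulum convert to progesterone, androgens and estrogens. FOXL2 is a forkhead transcription factor of granulosa cells that is needed to maintain their identity.

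The cells came from preantral follicles of female Swiss mice aged 8 weeks, in pools of 5 mice, and were mostly granulosa cells after 9 days in culture. All cells received a lipid transfection of 12 pmol siRNA with a plasmid encoding a red fluorescent protein, in medium whose serum had been stripped of hormones and to which no androstenedione, a substrate of aromatase, was any longer added. Either siRNAs with no target (control siRNA) or siRNAs against Foxl2 (FOXL2 siRNA), each as a pool, were combined with vehicle or 100 nM estradiol (E2), the latter for the last 10 h, which made 4 groups of 2 arrays, 1 for each of 2 biological replicates. Per the sample protocol the cells were lysed 24 h after medium was added to the transfected cultures, whereas the study's text describes the siRNA as a pretreatment of that length before E2, so that the time under siRNA is not settled. Whether arrays of the same number in different groups came from the same pool of mice is not stated. Follicle cells of other kinds were not removed by a sort, so that in these bulk samples fewer cells of a type and less RNA per cell cannot be told apart.

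Levels are given as log2 of the array signal scaled to a common 75th percentile, so that a difference of 1 is 2-fold, and the level of one gene is not comparable with that of another. In each list of values below, the first number is replicate 1 and the second replicate 2. A gene was called when its limma p, adjusted by Benjamini-Hochberg over all 15637 genes, was under 0.05. Where a fit with the replicate number as a block changed the call of a member, its adjusted p is given beside it. For the lists of other genes the block is given only as counts over both treatments, and for marker genes not at all.

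The 8 arrays were alike in brightness and detection, with 51.4 to 55.7% of probes well above background, and the correlation of both arrays of a group was 0.989 to 0.992 across genes. Foxl2 itself did not bear out the labels at the level of the gene: its difference over both treatments was 0.18 (SE 0.10, adjusted p = 0.334), with a bright probe at 0.18 and a dim probe at -0.97. Sox9, a Sertoli cell gene repressed by FOXL2, rose by 2.05 (SE 0.15, adjusted p = 0.0003). The groups are therefore called by their labels throughout, and FOXL2 siRNA stands for the arrays labelled so. The E2 labels had no check of their own. On the arrays labelled control siRNA, Hsd11b2 was lower with E2 by 2.33, and Sox9 and Sox8 were higher by 0.79 and 0.70, whereas with FOXL2 siRNA the E2 effects were 1.18, -0.43 and -0.30 (none called). These control siRNA directions are opposite to those the study describes for E2 on Hsd11b2, Sox9 and Sox8, and the FOXL2 siRNA directions are not. The study drew its directions from this same array experiment. Its description and the treatment labels of the control siRNA arrays thus conflict, and the reason was not tested. Values given for 1 treatment, for E2 with control siRNA, for E2 over both siRNAs or for a difference of E2 effects therefore rest on these arrays' treatment labels. The differences between the siRNAs over both treatments do not. Of 8 granulosa cell markers, 6 were well above background on all arrays, whereas the FSH receptor Fshr and the hormone Amh were so on none.

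The promoter windows of the called members for which RefSeq windows were at hand are printed here, because 2 of these genes rose and 1 fell with the siRNA. A window was found for 6 of the 10 members, and none for Star, Cyp17a1, Hsd17b1 and Scarb1. Each line holds the 250 bases before an annotated start, 5′ to 3′ on the strand of the gene (RefSeq, build GRCm38.p6), and capitals mark the forkhead core.
Cyp11a1, chr9:57997774-57998023, plus strand: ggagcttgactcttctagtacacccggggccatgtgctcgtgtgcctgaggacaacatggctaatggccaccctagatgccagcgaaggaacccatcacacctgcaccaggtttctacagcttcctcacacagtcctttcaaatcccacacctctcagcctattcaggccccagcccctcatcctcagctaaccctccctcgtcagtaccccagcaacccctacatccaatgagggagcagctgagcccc
Cyp11a1, chr9:58014702-58014951, plus strand: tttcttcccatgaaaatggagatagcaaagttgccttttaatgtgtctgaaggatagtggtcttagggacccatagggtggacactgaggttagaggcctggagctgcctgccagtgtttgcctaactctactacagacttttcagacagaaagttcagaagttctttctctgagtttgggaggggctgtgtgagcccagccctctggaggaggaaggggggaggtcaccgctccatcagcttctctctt
Fdxr, chr11:115276970-115277219, minus strand: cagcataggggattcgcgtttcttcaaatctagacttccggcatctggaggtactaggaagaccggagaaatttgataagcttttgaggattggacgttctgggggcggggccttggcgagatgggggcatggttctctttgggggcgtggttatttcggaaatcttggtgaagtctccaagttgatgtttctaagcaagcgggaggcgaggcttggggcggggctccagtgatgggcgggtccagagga
Hsd3b1, chr3:98859795-98860044, minus strand: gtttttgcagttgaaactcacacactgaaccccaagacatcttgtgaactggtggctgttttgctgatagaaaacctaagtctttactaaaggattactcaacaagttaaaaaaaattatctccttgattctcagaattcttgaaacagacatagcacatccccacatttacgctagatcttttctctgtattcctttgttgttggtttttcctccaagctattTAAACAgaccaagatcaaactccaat

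A pair of motifs was searched on both strands of these windows. The forkhead core was taken as TAAACA, the letters common to many forkhead sites, and the element of NR5A1 (steroidogenic factor), a nuclear receptor of steroid-producing cells, as AAGGTCA. The Hsd3b1 window held 1 forkhead core, beginning 26 bases before the start, and no other window of a member held either motif. This core follows a T, whereas the motif enriched in the study's FOXL2 peaks has a G or an A there. That motif also allows TAAATA, which was not searched. Over all 32851 promoter windows of this length, 12.0% held the forkhead core and 4.08% held the NR5A1 element. A match is only a match of letters, and its absence says nothing about sites elsewhere.

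Over both treatments, Cyp11a1 and Fdxr of the first mitochondrial step rose on the arrays labelled FOXL2 siRNA, 1.85-fold and 1.41-fold, and the later enzymes Hsd3b1 and Hsd17b1 fell to 62.0% and 36.0% of the control siRNA level. These 4 of 10 members were called, where 12.6% of all genes tested were called, 2 of them higher (6.4% of all genes) and 2 lower (6.18%). Among members not called, Fdx1 of the first mitochondrial step gave 0.08, and the later enzymes Cyp17a1, Srd5a1 and Cyp19a1 gave 0.62, 0.36 and -0.75. The median difference of the 10 members was 0.29, with 7 above 0, and that of all genes was -0.0026. With the replicate block 9 members were called, all but Fdx1, where 27.7% of all genes were called. The calls of the 4 genes held in all 8 fits that left out 1 array. The 4 arrays of either siRNA did not overlap for these 4 genes and for Cyp19a1, that is for 5 of 10 members, where the arrays of 20.9% of all genes did not overlap.

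**Figure D1:**
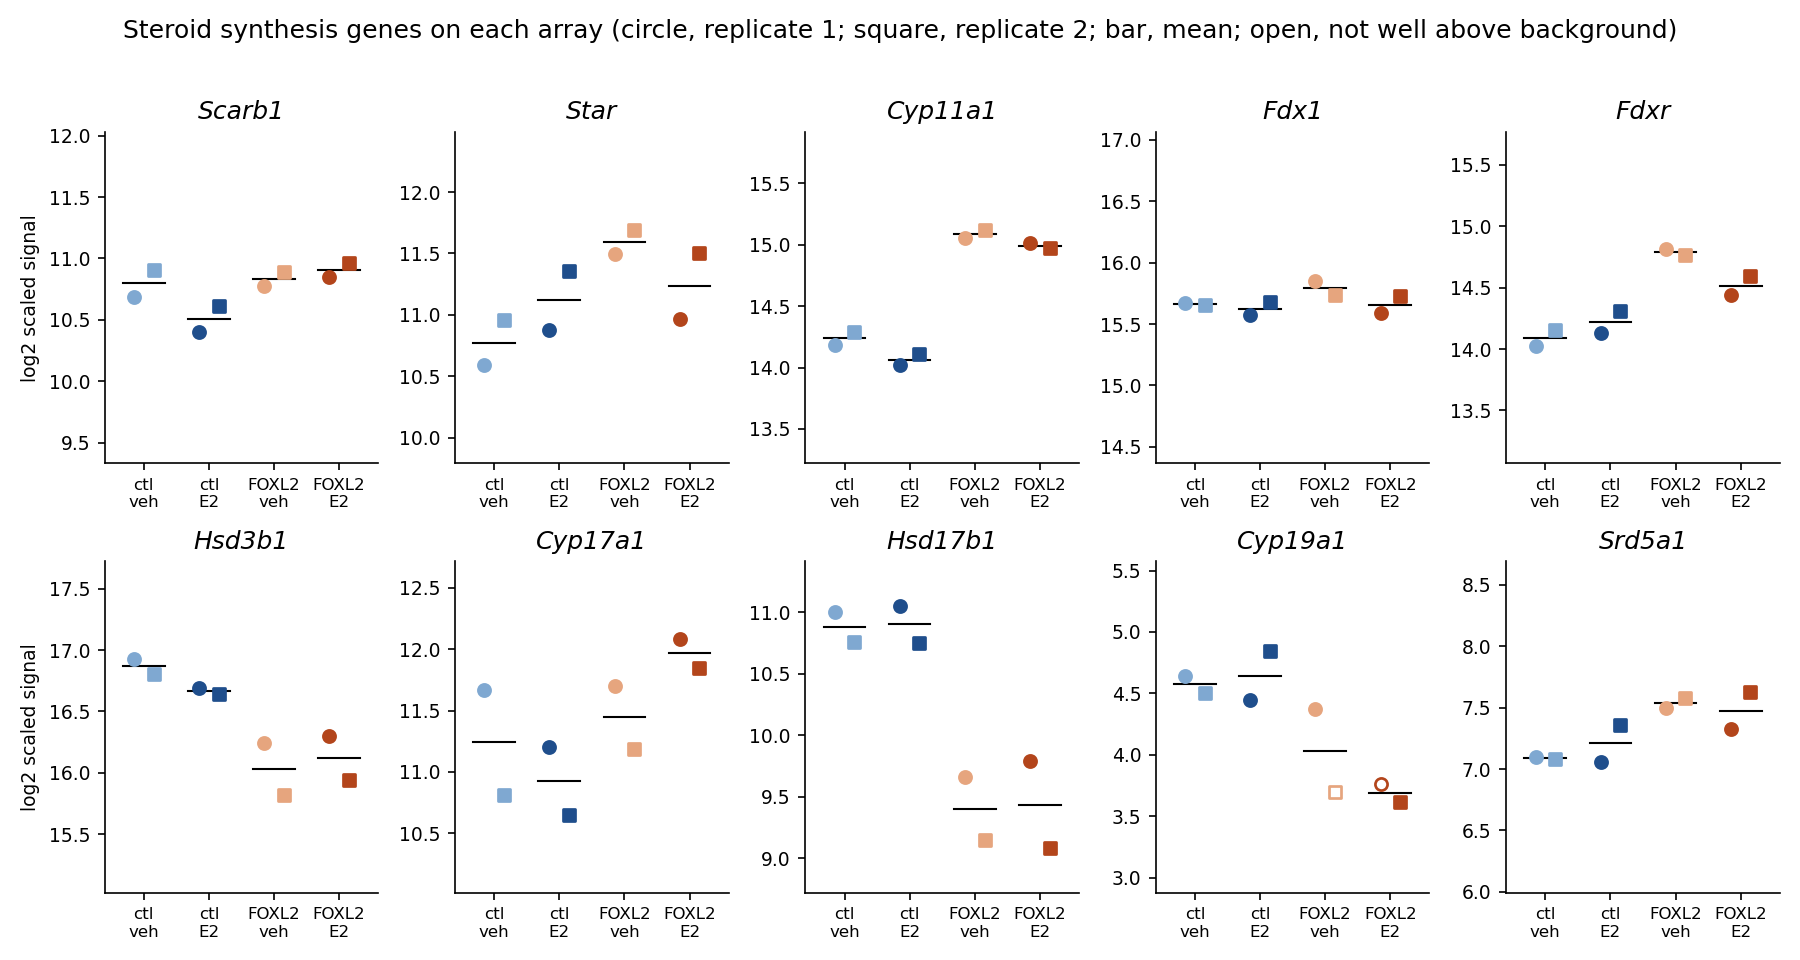
Log2 scaled signal of each member (vertical axis; every panel spans the same range) on the 8 arrays by group (horizontal axis; ctl, control siRNA; veh, vehicle), with circles for replicate 1, squares for replicate 2, bars for the group means and open symbols where the gene was not well above background. Cyp11a1 sits at 14.97 to 15.12 on the arrays labelled FOXL2 siRNA and at 14.02 to 14.29 on the others, and Hsd17b1 sits at 9.08 to 9.79 against 10.75 to 11.05.

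Entry of cholesterol was read from Scarb1 and Star. Scarb1 encodes the receptor SR-B1, which takes up cholesterol esters from high-density lipoprotein. Its level was 10.69 and 10.91 under vehicle and 10.40 and 10.62 under E2 with control siRNA, and 10.77 and 10.89 under vehicle and 10.85 and 10.96 under E2 with FOXL2 siRNA. The arrays of both siRNAs overlapped with vehicle, and with E2 both FOXL2 siRNA arrays were above both control siRNA arrays. The differences between the siRNAs were 0.04 (95% interval -0.24 to 0.31, adjusted p = 0.914) with vehicle and 0.40 (0.12 to 0.67, adjusted p = 0.126) with E2. With the replicate block the difference was called with E2 (adjusted p = 0.0060) and over both treatments (0.22, adjusted p = 0.0157). Scarb1 has 2 probes, which gave 0.01 and 0.14 with vehicle and 0.42 and 0.32 with E2.

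Star encodes the steroidogenic acute regulatory protein, which moves cholesterol to the inner mitochondrial membrane, the rate-limiting transfer of the pathway. With control siRNA it read 10.59 and 10.96 with vehicle and 10.88 and 11.36 with E2. With FOXL2 siRNA it read 11.49 and 11.69 with vehicle and 10.96 and 11.51 with E2. The siRNA groups were apart with vehicle and overlapped with E2. The difference with vehicle was 0.82 (SE 0.23, 95% interval 0.29 to 1.34), or 1.76-fold, and it missed the threshold (adjusted p = 0.0824), although a fit of those 4 arrays alone called it (adjusted p = 0.0494). With E2 the difference was 0.12 (SE 0.23, adjusted p = 0.865), and over both treatments 0.47 (SE 0.16, adjusted p = 0.105), and reached the threshold once array 1 of the E2 group with FOXL2 siRNA was left out (0.60, adjusted p = 0.0493). The replicate block called Star with vehicle (adjusted p = 8.4e-05) and over both treatments (adjusted p = 0.00026). Both probes of Star gave a positive difference with vehicle, at 0.89 and 0.60.

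Cyp11a1, Fdx1 and Fdxr together make the side-chain cleavage system. Cyp11a1 is the P450 enzyme that cuts cholesterol to pregnenolone, ferredoxin (Fdx1) hands it electrons, and ferredoxin reductase (Fdxr) loads ferredoxin from NADPH. Cyp11a1 read 14.19 and 14.29 under vehicle and 14.02 and 14.11 under E2 with control siRNA. Under FOXL2 siRNA the values were 15.06 and 15.12 under vehicle and 15.01 and 14.97 under E2. All FOXL2 siRNA arrays were above all control siRNA arrays, and the 2 arrays of a group differed by 0.04 to 0.10. Cyp11a1 rose by 0.85 (SE 0.08, adjusted p = 0.0021) with vehicle and by 0.93 (SE 0.08, adjusted p = 0.0019) with E2, which is 1.80-fold and 1.90-fold.

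Fdxr read 14.02 and 14.16 under vehicle and 14.13 and 14.31 under E2 with control siRNA. With FOXL2 siRNA it read 14.81 and 14.77 with vehicle and 14.44 and 14.59 with E2. The groups of the siRNAs did not overlap within either treatment. Fdxr rose by 0.70 (SE 0.10, adjusted p = 0.0074) with vehicle, or 1.63-fold. With E2 the difference was 0.30 (SE 0.10, 95% interval 0.07 to 0.53), which was not called (adjusted p = 0.171, or 0.0326 with the replicate block), and over both treatments Fdxr rose by 0.50 (SE 0.07, adjusted p = 0.0038). Leaving out array 1 (adjusted p = 0.0506) or array 2 (adjusted p = 0.0527) of the vehicle group with FOXL2 siRNA ended the call with vehicle.

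Fdx1, the partner between the other two, lay between 15.58 and 15.85 on all 8 arrays. It read 15.67 and 15.66 under vehicle and 15.58 and 15.68 under E2 with control siRNA, and 15.85 and 15.74 under vehicle and 15.59 and 15.72 under E2 with FOXL2 siRNA. Its difference over both treatments was 0.08 (95% interval -0.06 to 0.23, adjusted p = 0.471). The upper end of that interval is below the lower end of the interval of Fdxr over both treatments, 0.34 to 0.66, although the difference between both genes was not itself tested. Its 2 probes gave 0.09 and 0.07.

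Hsd3b1 encodes the 3-beta-hydroxysteroid dehydrogenase that turns pregnenolone into progesterone. It read 16.93 and 16.81 under vehicle and 16.69 and 16.64 under E2 with control siRNA. On the FOXL2 siRNA arrays it read 16.24 and 15.82 with vehicle and 16.30 and 15.94 with E2. Every FOXL2 siRNA array was below every control siRNA array. Over both treatments Hsd3b1 fell by 0.69 (SE 0.11, adjusted p = 0.0075), to 62.0% of the control siRNA level. With vehicle it fell by 0.83 (SE 0.16, adjusted p = 0.0235), and with E2 its difference was -0.54 (SE 0.16, adjusted p = 0.125, or 0.0033 with the replicate block).

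The call of Hsd3b1 with vehicle lay near the threshold. It was lost without a filter on dim genes (adjusted p = 0.0602), without the intensity trend (adjusted p = 0.065), and in a fit of those 4 arrays alone (adjusted p = 0.0563). Among the control siRNA groups, leaving out array 1 (adjusted p = 0.0878) or 2 (adjusted p = 0.0793) under vehicle or array 2 under E2 (adjusted p = 0.0502) also ended it, as did leaving out array 2 under vehicle with FOXL2 siRNA (-0.62, adjusted p = 0.131). Hsd3b1 has 1 probe on the array and belongs to a family of very similar genes, whose transcripts that probe may also bind, which was not tested.

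Cyp17a1 encodes the hydroxylase and lyase that leads from progestogens to androgens, and it is known as an enzyme of theca cells. It read 11.67 and 10.81 under vehicle and 11.20 and 10.65 under E2 with control siRNA. With FOXL2 siRNA it read 11.70 and 11.19 with vehicle and 12.09 and 11.85 with E2. The array of replicate 1 was the higher in each group, by 0.24 to 0.86, and the siRNAs overlapped with vehicle but not with E2. The difference between the siRNAs was 0.20 (95% interval -0.51 to 0.92, adjusted p = 0.797) with vehicle and 1.04 (0.33 to 1.76, adjusted p = 0.123), or 2.06-fold, with E2. Over both treatments it was 0.62 (SE 0.22, adjusted p = 0.110), and reached the threshold once array 1 of the vehicle group with control siRNA was left out (0.84, adjusted p = 0.0314). The replicate block, which takes out the shared order of the replicates, called the difference with E2 (adjusted p = 8.9e-05) and over both treatments (adjusted p = 0.00015) but not with vehicle (adjusted p = 0.288).

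No theca cell marker was called between the siRNAs in the main fit, and calls of markers with the replicate block are not given here. Of 8 such markers 7 were on the array, and 3 of them (Ptch1, Nr2f2 and Acta2) were well above background on all arrays. Those 3 were the ones tested. Tcf21 and Enpep were well above background on no array. Gli1 and Hhip were so on 1 array each, in both cases under E2 with FOXL2 siRNA. Ptch1 ran from 4.96 to 5.73 and Nr2f2 from 8.79 to 8.95 on the 8 arrays. Acta2, a smooth muscle actin, read 11.87 to 11.98 on the arrays of replicate 1 and 13.34 to 13.55 on those of replicate 2. Their summed signal, nearly all of it Acta2, was 12.07 to 13.61 in log2 with control siRNA and 12.10 to 13.45 with FOXL2 siRNA. The receptor for luteinizing hormone, Lhcgr, which drives Cyp17a1 in theca cells, was well above background on no array. The part of theca cells in the values of Cyp17a1 was not tested.

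Hsd17b1 encodes the 17-beta-hydroxysteroid dehydrogenase of granulosa cells, which reduces estrone to estradiol. It read 11.00 and 10.76 under vehicle and 11.05 and 10.75 under E2 with control siRNA. On the FOXL2 siRNA arrays it read 9.66 and 9.15 under vehicle and 9.79 and 9.08 under E2. The gap between the lowest control siRNA array and the highest FOXL2 siRNA array was larger than the spread within any group. Hsd17b1 fell by 1.48 (SE 0.26, adjusted p = 0.0162) with vehicle and by 1.47 (SE 0.26, adjusted p = 0.0216) with E2, and over both treatments to 36.0% of the control siRNA level (adjusted p = 0.0022). It was the member with the largest difference between the siRNAs.

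The call with vehicle ended when array 1 (-1.36, adjusted p = 0.0722) or 2 (-1.60, adjusted p = 0.0633) of its control siRNA group, or array 2 of its FOXL2 siRNA group (-1.23, adjusted p = 0.102), was left out. With E2 the call of Hsd17b1 was lost without the intensity trend (adjusted p = 0.0657), and when array 1 (-1.32, adjusted p = 0.148) or 2 (-1.62, adjusted p = 0.0833) of its control siRNA group, or array 2 of its FOXL2 siRNA group (-1.11, adjusted p = 0.096), was left out.

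Cyp19a1 encodes aromatase, which turns androgens into estrogens. It was dim in these cells, and was well above background on both arrays of each control siRNA group and on 1 of 2 arrays of each FOXL2 siRNA group. It read 4.64 and 4.51 under vehicle and 4.45 and 4.84 under E2 with control siRNA. With FOXL2 siRNA it read 4.37 and 3.69 with vehicle, replicate 2 not being well above background, and 3.76 and 3.61 with E2, where replicate 1 was not. All FOXL2 siRNA arrays were below all control siRNA arrays, although the nearest pair lay close together, at 4.37 and 4.45. The difference was -0.54 (95% interval -1.31 to 0.23, adjusted p = 0.445) with vehicle, -0.96 (-1.73 to -0.18, adjusted p = 0.189) with E2 and -0.75 (-1.30 to -0.20, adjusted p = 0.082, or 0.0404 with the replicate block) over both treatments. The difference with vehicle rested on single arrays: leaving out 1 array moved it between -0.88 and -0.20, the latter without array 2 of the FOXL2 siRNA group.

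Srd5a1 encodes a 5-alpha-reductase, which diverts progestogens and androgens to their reduced forms. It read 7.10 and 7.08 under vehicle and 7.06 and 7.36 under E2 with control siRNA, and 7.50 and 7.58 under vehicle and 7.33 and 7.63 under E2 with FOXL2 siRNA. The siRNAs were apart with vehicle and overlapped with E2. The difference was 0.45 (95% interval 0.07 to 0.83, adjusted p = 0.172) with vehicle and 0.27 (-0.11 to 0.64, adjusted p = 0.484) with E2. The replicate block called it with vehicle (adjusted p = 0.0326) and over both treatments (0.36, adjusted p = 0.0129). A second probe annotated to Srd5a1 was well above background on no array and adds little to the gene value.

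Counted by treatment, 4 members were called with vehicle, where 6.56% of all genes were called, 2 higher (3.63% of all genes) and 2 lower (2.94%). With E2 there were 2, where 4.39% of all genes were called, Cyp11a1 higher (2.25%) and Hsd17b1 lower (2.14%). With the replicate block 6 members were called with vehicle (18.7% of all genes) and 6 with E2 (14.9%). The counts over all genes also rested on single arrays. Leaving out any 1 of the 4 vehicle arrays lowered the count with vehicle by over 1.5 times, from 1026 to as few as 309, without array 2 of FOXL2 siRNA. Leaving out any 1 of the 4 E2 arrays did so with E2, from 686 to as few as 130, without array 1 of control siRNA. Over both treatments the count fell from 1967 to as few as 1181, by over 1.5 times without array 2 of either FOXL2 siRNA group or either array under E2 with control siRNA. The members' median size of difference, whatever its sign, was 0.62 with vehicle and 0.47 with E2, against 0.18 and 0.16 over all genes.

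**Figure D2:**
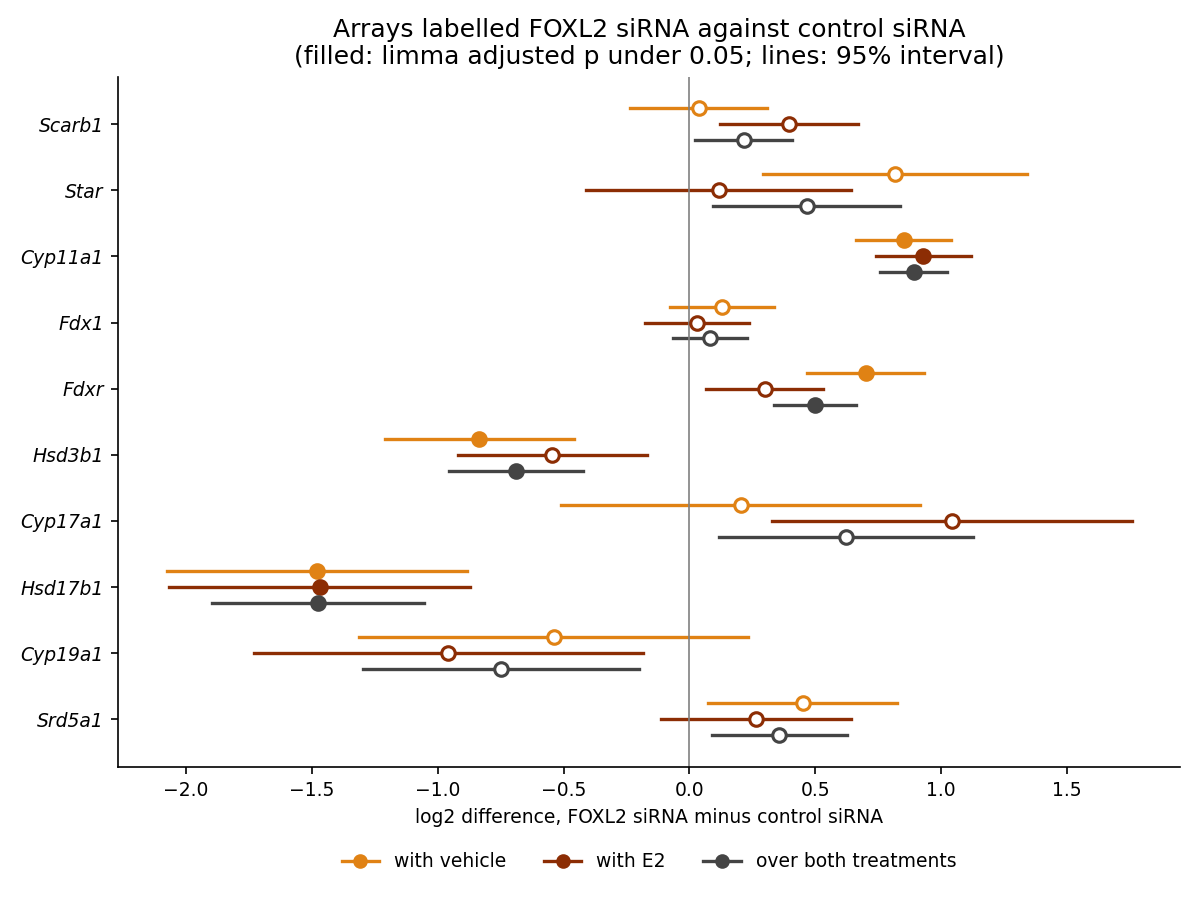
Log2 difference between arrays labelled FOXL2 siRNA and control siRNA (horizontal axis) for each member (vertical axis) with vehicle, with E2 and over both treatments, with 95% intervals from the limma fit that are not adjusted for the number of genes, and filled points where the adjusted p was under 0.05. Cyp11a1 is filled and positive in all 3 comparisons, at 0.85 to 0.93, and Hsd17b1 is filled and negative in all 3, at -1.48 to -1.47.

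E2 was compared with vehicle within each siRNA, on the same 8 arrays as the comparisons above, so that the values are not independent of them. No member was called by limma with control siRNA (0.0192% of all genes called), with FOXL2 siRNA (0.0128%) or over both siRNAs (0%), nor for the difference of both E2 effects (0.243%). The comparison over both siRNAs averages the effects within each siRNA, which had opposite signs for all members but Cyp11a1, Hsd17b1 and Fdx1. It also rests on the treatment labels of the control siRNA arrays. With the replicate block no member was called for E2 either, with control siRNA (1.16% of all genes), with FOXL2 siRNA (0.614%) or over both (0.0512%), but Star and Cyp17a1 were called for the difference, as 2.12% of all genes were. Of all 15637 genes, 716 had an unadjusted p under 0.05 with control siRNA and 478 with FOXL2 siRNA. The count was 360 over both siRNAs and 767 for the difference. Among the 10 members, 1 was under 0.05 in each of these 4 comparisons. These were Scarb1 with control siRNA (-0.29), Fdxr with FOXL2 siRNA (-0.27) and for the difference (-0.40), and Cyp11a1 over both siRNAs (-0.13), each with an adjusted p between 0.830 and 1.00.

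With control siRNA the E2 effects of the 10 members ran from -0.32 for Cyp17a1 to 0.34 for Star, and 5 were positive. With FOXL2 siRNA they ran from -0.36 for Star to 0.52 for Cyp17a1, and 4 were positive. The bounds were tightest for Cyp11a1, whose 95% interval was -0.36 to 0.02 with control siRNA and -0.29 to 0.09 with FOXL2 siRNA, so that an E2 effect of 2-fold on this gene lay outside them. They were widest for Cyp19a1, at -0.70 to 0.84 and -1.12 to 0.43. Hsd17b1 gave 0.02 (-0.57 to 0.62) and 0.03 (-0.56 to 0.63), and Hsd3b1 gave -0.20 (-0.58 to 0.18) and 0.09 (-0.29 to 0.47).

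Star and Cyp17a1 had the largest differences between their E2 effects. Star was higher with E2 by 0.34 (SE 0.23) with control siRNA and lower by 0.36 with FOXL2 siRNA, a difference of -0.70 (SE 0.32, 95% interval -1.44 to 0.04). Cyp17a1 differed the other way, by -0.32 (SE 0.31) and 0.52 (SE 0.31), a difference of 0.84 (SE 0.43, 95% interval -0.17 to 1.85). The adjusted p of either difference was 1.00, or 0.0186 for Star and 0.0237 for Cyp17a1 with the replicate block. Both differences rest on which control siRNA arrays carry the E2 label, and for both genes the E2 effect within each siRNA lay within an interval that held 0.

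**Figure D3:**
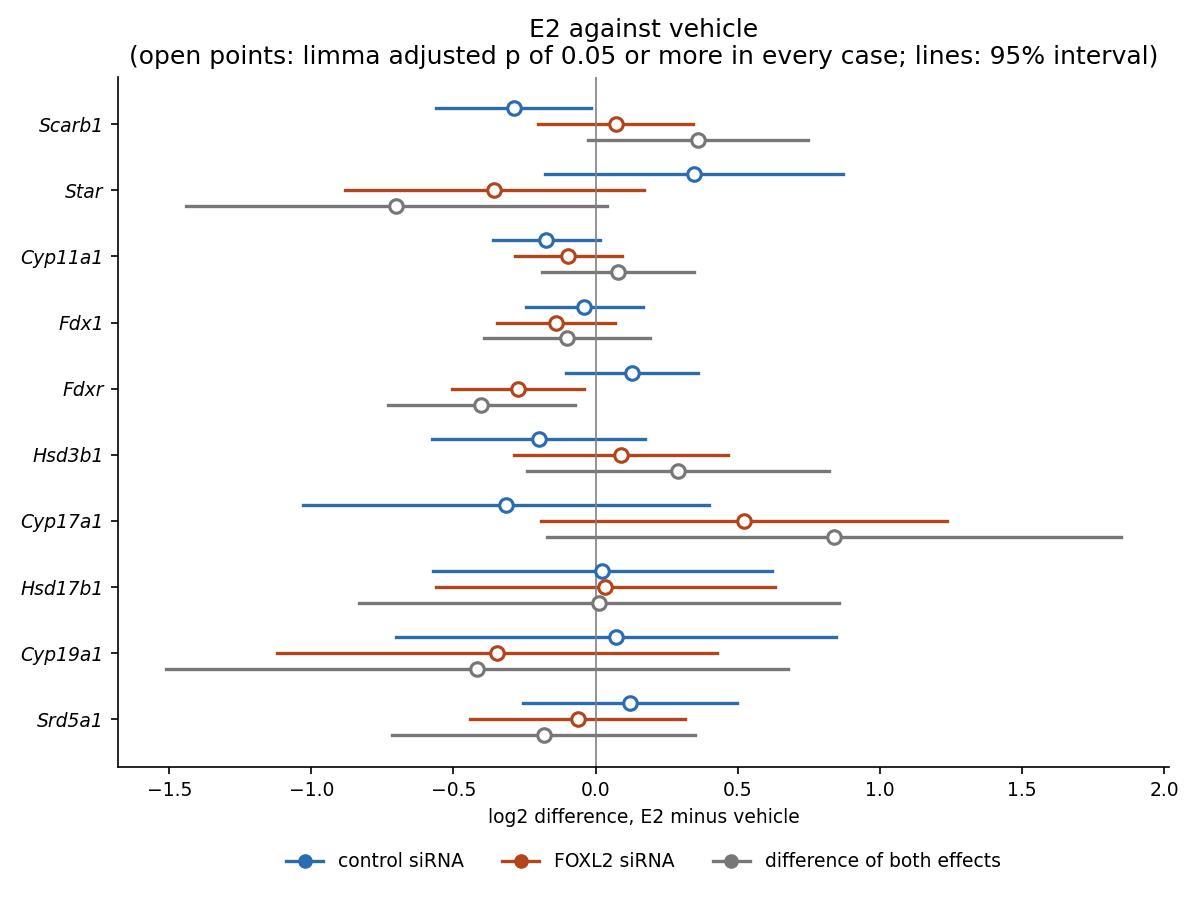
Log2 difference between E2 and vehicle (horizontal axis) for each member (vertical axis) with control siRNA, with FOXL2 siRNA and as the difference of both effects, with unadjusted 95% intervals from the limma fit. All points are open because no adjusted p was under 0.05, and the widest intervals belong to Cyp19a1 and Cyp17a1.

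The rest of the pathway was read from 3 lists. Of 23 other genes of cholesterol supply and transport, all were tested, and over both treatments 3 rose and 2 fell with FOXL2 siRNA (6.4% and 6.18% of all genes), with a median difference of -0.01. With the replicate block 11 of the 23 were called, 10 of 20 in the list that comes next and 15 of 33 regulators, where 27.7% of all genes were called. Vldlr, a lipoprotein receptor, fell by 1.10 (SE 0.08, adjusted p = 0.00035), from 11.25 to 11.62 on the control siRNA arrays to 10.01 to 10.57 on the others. Soat1, which esterifies cholesterol for storage, fell by 0.60 (adjusted p = 0.0095). The cholesterol exporters Abcg1 and Abca1 rose by 0.58 and 0.38 (adjusted p = 0.014 for both), and Tspo, an outer mitochondrial membrane protein, rose by 0.34 (adjusted p = 0.028). With array 2 of either FOXL2 siRNA group left out, 3 of the 23 genes were called instead of 5. With vehicle 2 of the 23 rose and 2 fell (3.63% and 2.94% of all genes), and with E2 none rose and 1, Vldlr, fell (2.25% and 2.14%).

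Of 33 other steroid-converting enzymes, 31 were matched to the array and 20 were bright enough to be tested, while 11 were not. Over both treatments 1 rose and 4 fell (6.4% and 6.18% of all genes), with a median difference of -0.14. Hsd17b7, a reductase of estrone that also acts in cholesterol synthesis, rose by 0.71 (SE 0.12, adjusted p = 0.0092). Akr1c14, a 3-alpha-hydroxysteroid dehydrogenase, fell by 1.20 (SE 0.13, adjusted p = 0.0012), and Hsd3b6, a close relative of Hsd3b1, fell by 1.05 (SE 0.15, adjusted p = 0.0046). Hsd17b4, a peroxisomal enzyme, fell by 0.42 (SE 0.06, adjusted p = 0.0034). Among those not tested, Hsd17b3, which makes testosterone in the testis, and the adrenal enzymes Cyp11b1 and Cyp11b2 were well above background on no array.

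Hsd11b2, which inactivates glucocorticoids, fell by 1.98 over both treatments (SE 0.38, adjusted p = 0.013), with its arrays far apart. It read 7.21 and 6.99 under vehicle and 5.27 and 4.27 under E2 with control siRNA, and 2.71 and 4.02 under vehicle and 5.03 and 4.07 under E2 with FOXL2 siRNA. The siRNAs were apart with vehicle, where it fell by 3.74 (SE 0.53, adjusted p = 0.0074), and overlapped with E2, where the difference was -0.22 (adjusted p = 0.893). With FOXL2 siRNA and vehicle, 1 of 2 arrays was well above background. This split by treatment rests on the treatment labels of the control siRNA arrays, on which Hsd11b2 ran against the direction described for E2. With vehicle 4 of the 20 enzymes fell and none rose (2.94% and 3.63% of all genes), and with E2 Hsd17b7 rose and Hsd17b4 fell (2.25% and 2.14%).

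Of 38 regulators of steroid synthesis genes, 33 were tested, and over both treatments 2 rose and 7 fell (6.4% and 6.18% of all genes), with a median difference of -0.07. Wt1, a transcription factor of granulosa and Sertoli cells, rose by 1.02 (SE 0.07, adjusted p = 0.0003), and Gata4, which acts on promoters of steroid synthesis genes, rose by 0.47 (SE 0.09, adjusted p = 0.011). Pparg, a lipid-sensing nuclear receptor, fell by 1.91 (SE 0.15, adjusted p = 0.00035). The cyclic AMP phosphodiesterase Pde4b fell by 1.08 (adjusted p = 0.0078), the forkhead factor Foxo1 by 0.83 (adjusted p = 0.012), the protein kinase A subunit Prkar2b by 0.72 (adjusted p = 0.002), and the transcription factor Cebpb by 0.56 (adjusted p = 0.0068). Nr5a1 had differences of opposite sign, -0.34 (SE 0.09, adjusted p = 0.0771) with vehicle and 0.14 (SE 0.09, adjusted p = 0.517) with E2, which differed by 0.49 (SE 0.13, adjusted p = 0.487) and gave -0.10 over both treatments (adjusted p = 0.391). In the main fit, no tested gene of the 3 lists was called for E2 with either siRNA or for the difference of the E2 effects.

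**Figure D4:**
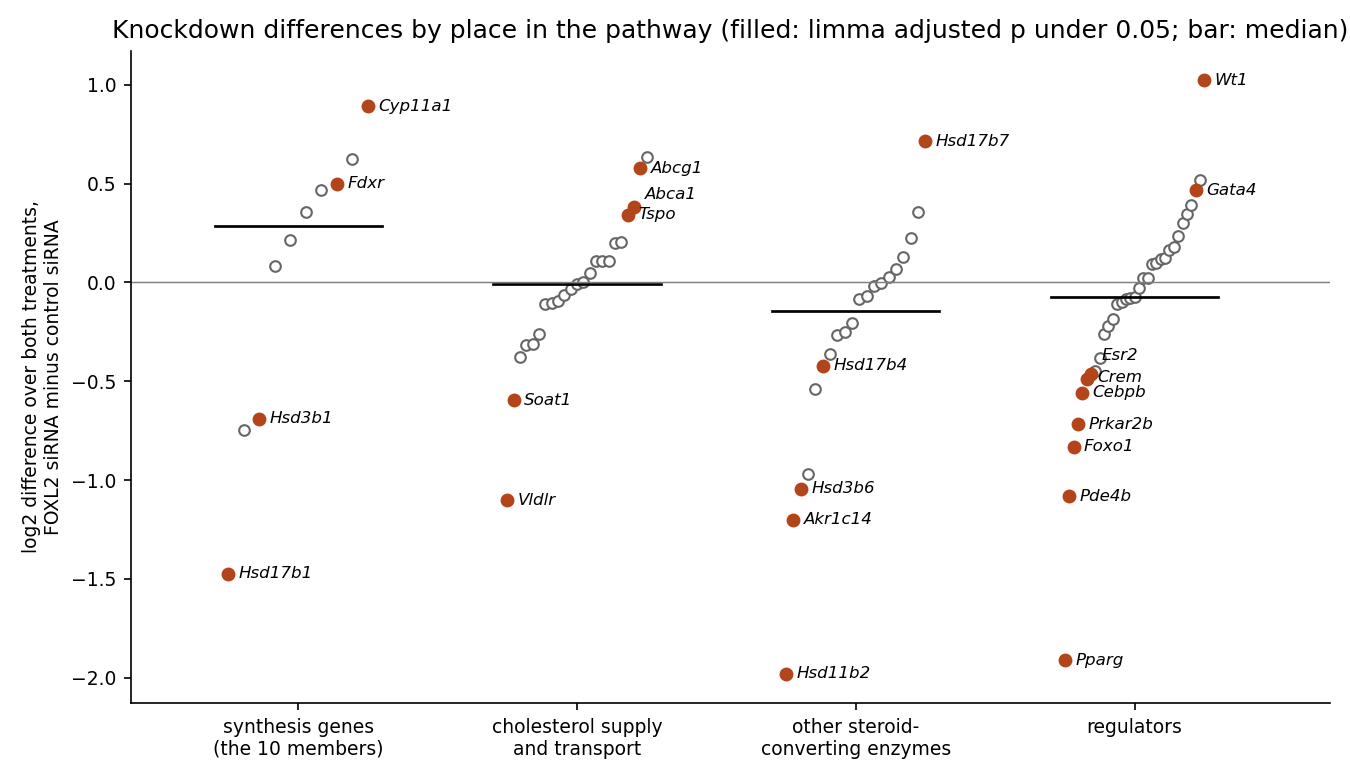
Log2 difference over both treatments between arrays labelled FOXL2 siRNA and control siRNA (vertical axis) for the 10 members and for the tested genes of the 3 lists (horizontal axis, genes ordered by value within a list), filled and named where the limma adjusted p was under 0.05, with bars at the medians. The members' median is 0.29 and those of the lists are -0.01, -0.14 and -0.07, with called genes on both sides of 0 in each.

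Among the markers of other cells, genes called in the main fit were found in the Sertoli and luteal lists. Calls of these markers with the replicate block are not given here. Of 5 tested Sertoli cell markers, Sox9, Sox8 and Dhh rose over both treatments and with either treatment, where 6.4% of all genes were higher over both. Dmrt1 went the other way, by -0.48 (adjusted p = 0.0694), with 6.52 to 7.25 on the control siRNA arrays and 6.14 to 6.39 on the FOXL2 siRNA arrays. The summed log2 signal of the 6 markers, most of it Dhh, was 11.22 to 11.68 on the control siRNA arrays and 12.15 to 12.65 on the FOXL2 siRNA arrays. Of 3 tested luteal cell markers, all had a negative difference over both treatments, and Sfrp4 fell by 0.42 (adjusted p = 0.041), with a sum of 16.00 to 16.38 against 15.64 to 15.90. Of 6 tested granulosa cell markers, Inhbb and Gata4 rose and Fst fell over both treatments, with a sum of 16.81 to 16.89 against 17.08 to 17.25. None of 4 macrophage markers or 2 endothelial markers tested was called. Of 6 oocyte markers Gdf9 alone, and of 4 markers of adrenal-like steroid cells Cyp21a1 alone, was well above background on any array, and neither was called. The part of these shifts in the values of Cyp11a1, Fdxr, Hsd3b1 and Hsd17b1 was not tested.

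Across the 8 arrays, which share groups and may share pools, Hsd3b1 and Hsd17b1 had the most similar profiles of any pair of members (Pearson r = 0.969), and Cyp11a1 ran opposite to Hsd17b1 (r = -0.949). Of 12691 genes with a usual symbol that were well above background on all arrays, those most like Cyp11a1 were Zyx, Adamtsl5 and Iqsec1 (r = 0.991 to 0.992). Those most like Hsd17b1 were Kcnip3, Dtnbp1 and Pgm2l1 (r = 0.995 to 0.996). Hsd3b1 was followed by Tspyl3, Actr3b and Rapgefl1 (r = 0.988 to 0.990), and Fdxr by Septin8, Rpusd1 and Camsap3 (r = 0.987 to 0.993). With 8 arrays in 4 groups such values mainly describe a shared split by siRNA.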

How the data were processed

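Per the labels, 50 ng total RNA was amplified and labelled with Cy3 for Agilent one-colour mouse arrays (8 arrays on 1 slide), and the authors extracted spots with Feature Extraction 11.5.1.1. The deposited scanner files hold processed intensity, background-corrected by that software, and the authors' value table holds log2 values after a 75th percentile scaling. No aligner or genome build bears on these values. Here, control spots (3671 of 62976) and 42 probes with non-uniform spots were left out, none was saturated, and each array was scaled to a 75th percentile of 319.9 (275 to 367 before scaling). Probes with the same Entrez identifier in the authors' table were averaged, which gave 24232 genes, of which 22349 had a RefSeq symbol. The 15637 genes whose scaled signal had a median of 10 or more were kept.

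Groups were taken from sample titles. Log2 values of all 8 arrays were fitted as 4 group means with limma 3.58.1 (R 4.3.3, eBayes with intensity trend, two-sided, Benjamini-Hochberg, threshold 0.05). The number of arrays, 2 per group, limits the precision. Simulated on these values, the fit over both treatments recovered 82 of 100 genes changed by 1 and 91 of 100 changed by 2 on the log2 scale, with 9 false calls among all other genes. The simulated arrays varied independently, without the shared deviations of same-numbered arrays given below, so these rates need not hold for the real arrays. Alternatives were normexp, quantile normalization, other filters, the brightest probe, the authors' log2 table and no trend. Others were only the groups compared, a replicate block, leaving out each array and a rule of the study. That rule asks for a difference of at least 1 and over 2 times the sum of both SDs. The study used it for targets of nuclear receptors and of E2, not for those of FOXL2. The labels number the biological replicates 1 and 2 in each group, with a pool of 5 mice per replicate, and do not say that a number marks the same pool across groups. Deviations of same-numbered arrays from their group means correlated at 0.327 to 0.445 in all 6 pairs of groups, so that the numbers were taken, from the data, to pair the arrays. The fit without the block stayed the main one. Motifs were searched in Python 3.11.15.

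The members, lists, tests and alternatives were chosen with earlier results of these data known, so the lists support nothing on their own. Named were all members, Foxl2 and Sox9, list genes called in any comparison and well above background on both arrays of a compared group (at most 5 higher and 5 lower per list), and, for each called member, the 3 most correlated genes. Other genes named here, such as Nr5a1, Lhcgr, Hsd17b3, Cyp11b1 and Cyp11b2, were chosen after their values were seen, and marker genes came from fixed lists of granulosa, theca, luteal, Sertoli, oocyte, macrophage, endothelial and adrenal-like cells.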

Additional observations from a re-analysis of the deposited data

How the results depend on the processing

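Over both treatments, the calls of Cyp11a1, Fdxr, Hsd3b1 and Hsd17b1 held under normexp on the median signal (the mean signal was not used here), quantile normalization, both other filters, the brightest probe, the authors' table, no intensity trend and each fit without 1 array. Normexp turned the E2 effects with control siRNA of Cyp19a1 (-0.026) and Hsd17b1 (-0.034). No intensity trend gave 1 member called between the siRNAs with E2. The study's rule for targets of nuclear receptors and E2 gave 1 member between the siRNAs with vehicle and 1 with E2, in both cases Hsd17b1. The share of all genes that met this rule is not given here. For FOXL2 targets the study used a paired test with a lower cut on fold change, on other arrays, which was not run here.

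Leaving out 1 array gave 1 to 4 members called between the siRNAs with vehicle, 1 to 2 with E2 and 4 to 5 over both treatments, and 0 for E2. Over both treatments it gave 3 to 5 genes of cholesterol supply. These fits assume that a lone array of a group varies like the other groups. Values near 0 changed sign there: between the siRNAs, Star with E2 ran from -0.16 to 0.39, Cyp17a1 with vehicle from -0.22 to 0.63, Scarb1 with vehicle from -0.074 to 0.15 and Fdx1 with E2 from -0.037 to 0.099. For E2 with control siRNA, Cyp17a1 ran from -0.74 to 0.11, Cyp19a1 from -0.13 to 0.27, Hsd17b1 from -0.13 to 0.17, Srd5a1 from -0.031 to 0.27 and Fdx1 from -0.090 to 0.011. For E2 with FOXL2 siRNA, Hsd3b1 ran from -0.12 to 0.30, Hsd17b1 from -0.32 to 0.39 and Srd5a1 from -0.21 to 0.087, and the difference of the E2 effects of Hsd17b1 from -0.34 to 0.37.

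With the replicate number as a block, 6 members were called between the siRNAs with vehicle, 6 with E2 and 9 over both treatments, all but Fdx1, and 2 (Star and Cyp17a1) for the difference of the E2 effects, with 0 for E2 within or over the siRNAs. It changed no call of a member other than those given with the results. The block gave 11 genes of cholesterol supply, 10 other steroid-converting enzymes and 15 regulators over both treatments. Over all genes it moved the calls from 1026 to 2928 with vehicle, from 686 to 2329 with E2, from 1967 to 4326 over both treatments, and for E2 from 3 to 182, from 2 to 96 and from 0 to 8, with 332 in place of 38 for the difference. No trend gave 633 and 379 genes with vehicle and E2 and 15 for the difference, the groups compared alone 585 with vehicle, and no filter 9 for the difference. The alternatives for the 3 lists were added after seeing the data.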
